A study of Danio rerio with 24 samples.

Results

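Zebrafish embryos kept with oligomycin were compared with embryos exposed to actinomycin D at 4 hours post fertilization (hpf), using the 4 libraries that carry each label, 8 of the 24 in the series. Every library came from whole wild-type embryos of the TLAB strain of Danio rerio. The 6 groups were untreated embryos, embryos with oligomycin at 1 µM and embryos with actinomycin D at 10 µg/ml, each at 3 and at 4 hpf, with 4 libraries a group. The treatment protocol describes both agents as present in the medium from laying, the design text speaks of injecting actinomycin D, and the route was not settled here. The untreated libraries and the 3 hpf libraries served to sort genes into classes and to measure changes with time.

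Oligomycin blocks the proton channel of the mitochondrial ATP synthase, so that respiration no longer yields ATP. Actinomycin D binds DNA and stops RNA polymerases. A zebrafish embryo starts with RNA laid down in the egg and switches on its own genes at the mid-blastula transition, an event driven by the maternal factors Nanog, Pou5f3 and Sox19b. Maternal RNAs are then cleared, in part by a programme carried in the egg and in part by new zygotic products such as the microRNA miR-430, which recruits the deadenylation machinery.

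Total counts of the 8 libraries lay between 1814709 and 3418462, with means of 2629610 ± 670719 in oligomycin and 2591720 ± 645081 in actinomycin D (SD, n = 4 each). Oligomycin libraries had 15358 to 16983 genes with a count and actinomycin D libraries 14569 to 15677. All 18 egg RNAs of a marker list had counts in each of the 8 libraries. Of 11 identifiers marking tissues formed later, 7 to 10 were at 0 in the oligomycin libraries and 9 to 11 in the actinomycin D libraries, and their summed level was 1.42 to 3.80 against 0 to 1.39 CPM (counts adjusted for the size of each library). Actinomycin D replicate 4 stood apart in its zygotic RNAs, as described below with each result it touches. Whether replicates came from separate clutches is not stated, so p-values measure the spread between these libraries, which may be technical. Each library is a whole-embryo sample, in which fewer cells of a kind and less RNA per cell cannot be told apart. The kit primes on poly(A) tails, so loss of an RNA and loss of its tail cannot be told apart either.

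Oligomycin and actinomycin D embryos differed at 4 hpf mainly through RNAs that were more abundant in oligomycin. Each gene was tested with edgeR (quasi-likelihood, p adjusted by Benjamini-Hochberg over all genes) and called at an adjusted p under 0.05. On this rule 1100 of 11238 genes were higher in oligomycin (9.79%) and 240 were lower (2.14%). At least 2-fold differences were seen for 611 of the higher and 8 of the lower genes. At 3 hpf the same 2 treatments differed in 17 genes. The first library series alone gave 778 genes higher and 88 lower, and the second gave 250 and 3. Without actinomycin D replicate 2 the number lower was 41. With the library set as a replicate block, 770 genes were lower and 1569 higher.

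Genes were sorted by their course in untreated embryos and by their level in actinomycin D at 3 hpf, with no level of the 8 libraries compared in the rule. The 8 libraries entered it only through the filter, scaling and spread of the fit to all 24. The 3 changing classes below hold 276, 285 and 424 genes. With the time test fitted to the untreated libraries alone they held 254, 265 and 413. That alternative still used the filter and the actinomycin D levels of the fit to all 24. From 3 to 4 hpf 1437 genes (12.8%) rose in untreated embryos and 1643 (14.6%) fell. RNAs that rose at least 2-fold were called zygotic only where actinomycin D embryos at 3 hpf held under 1 CPM (276 genes), and maternal and zygotic above that level (285 genes). RNAs that fell at least 2-fold from a level of at least 5 CPM were called maternal cleared (424 genes), and those of at least 5 CPM with no called change were called maternal steady (6919 genes). The zygotic-only class had 201 genes higher in oligomycin (72.8%) and 0 lower. Maternal and zygotic genes were higher in 94 cases (33.0%) and lower in 0. In these 2 classes the count lower was also 0 at an unadjusted p under 0.05 and by DESeq2. For zygotic-only genes this adds little, since 156 of the 276 were at the floor in actinomycin D and could hardly be called lower. The maternal cleared class had 229 genes higher (54.0%) and 4 lower (0.943%). Maternal steady genes were rarely called, 185 higher (2.67%) and 130 lower (1.88%), and the remaining 3334 genes gave 391 higher (11.7%) and 106 lower (3.18%).

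**Figure D1:**
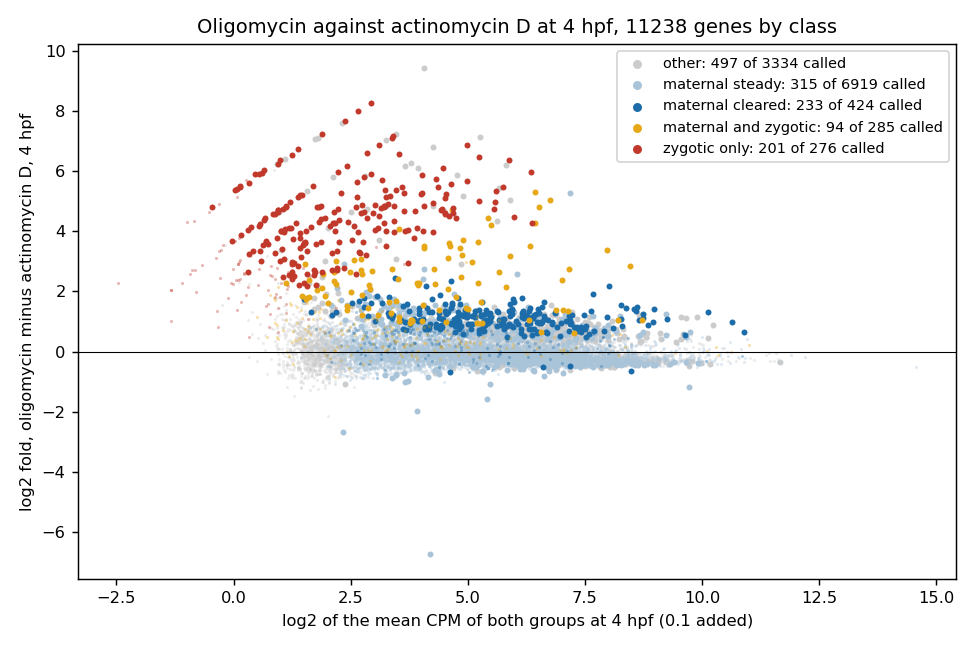
Log2 fold change of oligomycin over actinomycin D at 4 hpf (vertical axis) against the log2 of the mean CPM of both groups with 0.1 added (horizontal axis) for 11238 genes, coloured by class, with called genes as large points and the others as small ones. Zygotic-only genes lie far above 0 at low to middle levels, 201 of 276 called, and called maternal cleared genes lie mostly near 1 at middle to high levels; folds of genes with no counts in actinomycin D are fitted values.

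Zygotic-only RNAs made up a small share of each library, and that share was larger in every oligomycin library than in any actinomycin D library. The share of counts was 0.143%, 0.375%, 0.272% and 0.709% in oligomycin replicates 1 to 4. It was 0.00737%, 0.00627%, 0.00524% and 0.0471% in actinomycin D. The groups did not overlap, and replicate 4 was the highest in both. In means, oligomycin held 0.375 ± 0.242%, actinomycin D 0.0165 ± 0.0204% and untreated embryos 1.33 ± 0.427% (SD, n = 4 each). At 3 hpf the share was 0.0600 ± 0.0405% in oligomycin and 0.00644 ± 0.000804% in actinomycin D. Actinomycin D libraries at 3 hpf helped to choose the class, through the limit of 1 CPM, so their low share follows in part from that rule.

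Within the class, the 4 oligomycin libraries took similar ranks from gene to gene. Of the 201 genes called higher, replicate 4 had the highest of the oligomycin values in 181 and replicate 1 the lowest in 164. Between 253 and 275 of the 276 genes had at least 1 count in each oligomycin library. In actinomycin D, 86, 70, 89 and 232 of them had a count in replicates 1 to 4, and replicate 4 held the highest value of its group in 153 of the 201 genes. Without actinomycin D replicate 4 the class median log2 fold change was 5.45, against 4.01 with it. From 3 to 4 hpf 38 of the 276 rose in oligomycin, where 0.498% of all genes did. That number was 2 without oligomycin replicate 4 and 94 without replicate 1, 69 with the library set as a replicate block and 75 by DESeq2. Leaving out oligomycin replicate 4 lowered the number called to 147, in a class that then held 322 genes, the smallest number when 1 library was dropped.

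The size of the difference was bounded rather than measured for most of these genes. For 156 of the 276, no actinomycin D library had more than 3 counts, so the fold was set against that floor of 3 counts per library and is a lower bound. The class median was 4.01 on the log2 scale from the fit and 2.22 with those genes at their bound, and 183 genes did not overlap between the groups, against 10.7% of all genes tested. Relative to untreated embryos at 4 hpf, which chose the class, the median oligomycin level was 24.4% (quartiles 17.5% and 37.2%) and the median actinomycin D level 1.17%. In 26 genes the oligomycin level was under 10% of the untreated one, and in 1, tagapa, it was above it. Of the 196 genes already at 1 CPM or more in untreated embryos at 3 hpf, 160 were called higher (81.6%). Of the 80 that were below it, 41 were (51.2%). The median oligomycin level relative to untreated embryos was 26.5% in the first set and 20.2% in the second. Whether the shares called differed through counts too low for a call was not tested.

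**Figure D2:**
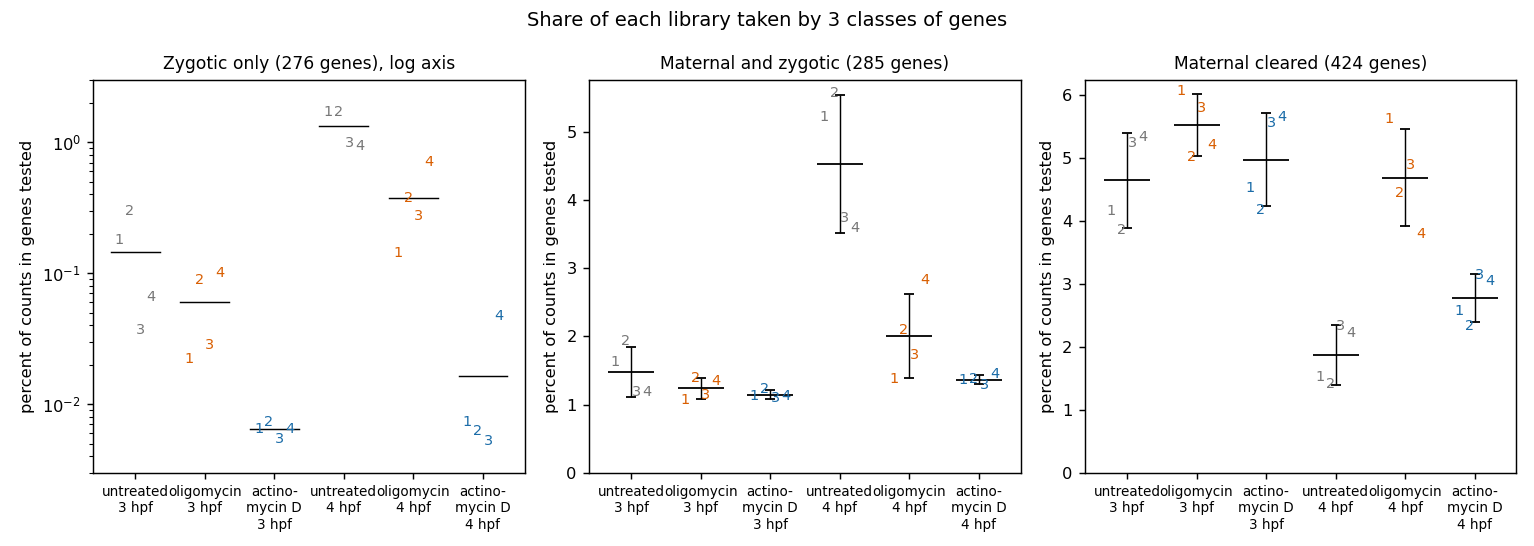
Percent of counts in tested genes taken by 3 gene classes in each of the 24 libraries, with digits marking the replicate, black lines the group mean and, in the 2 linear panels, bars the SD (n = 4); the zygotic-only panel has a log axis. Zygotic-only shares in oligomycin at 4 hpf run from 0.143% to 0.709% and lie between the untreated and the actinomycin D libraries, and maternal cleared shares in oligomycin at 4 hpf lie above both other groups.

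The strongest zygotic-only calls were tagapa, GADD45B, ndr2, mxtx2 and vox. The gene mxtx2 (ENSDARG00000015906) encodes a homeodomain factor of the yolk syncytial layer. Its oligomycin libraries held 105, 185, 139 and 212 CPM and its actinomycin D libraries 0, 0, 0 and 9.12 CPM, given here and below in the order of replicates 1 to 4. The groups were far apart, and the actinomycin D signal came from replicate 4 alone. The log2 fold change was 5.96 (SE 0.674, adjusted p 2.42e-05). Its level in oligomycin, 160.0 CPM on average, was next to the 185 CPM of untreated embryos (difference on the log2 scale -0.21, adjusted p 0.787). For GADD45B (ENSDARG00000013576), a growth arrest and DNA damage inducible gene, oligomycin libraries held 63.4, 89.7, 67.0 and 77.8 CPM and actinomycin D libraries 0, 0, 0 and 2.81 CPM. It was higher (log2 fold change 6.48, SE 0.719, adjusted p 1.99e-05).

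Most signalling genes of the early axes were higher in oligomycin. Of 20 tested identifiers for Nodal, BMP, FGF, Wnt and organiser signals, 18 were higher in oligomycin (90%, against 9.79% of all genes tested). A further 7 were not tested. Here and in the zygotic lists below, identifiers near 0 in actinomycin D could pass the filter only through other groups. The shares called were thus in part set by the filter. Among the ligands, the Nodal gene ndr2 (cyclops, ENSDARG00000101279) had 10.0, 20.4, 21.9 and 31.2 CPM in oligomycin and 0, 0.521, 0 and 0 CPM in actinomycin D, which makes it at least 16.9-fold higher. The other Nodal gene, ndr1 (squint, ENSDARG00000057096), was also present maternally. Its libraries held 14.0, 20.9, 17.6 and 26.1 CPM against 0.933, 1.04, 3.09 and 3.51 CPM, log2 fold change 3.08 (SE 0.349, adjusted p 9.27e-06). In means, ndr2 and ndr1 stood at 20.9 and 19.7 CPM in oligomycin and at 26.1 and 16.6 CPM in untreated embryos. BMP2 and bmp7a, ligands of the ventral side, differed by 4.11 and 4.51 on the log2 scale (adjusted p 0.00893 and 0.000395). FGF3, FGF8 and fgf17 were higher by at least 6.22-fold, by 2.25 and by 5.15 on the log2 scale.

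Inhibitors and feedback genes of the same pathways were higher as well. The Nodal antagonist lft2 (ENSDARG00000044059) held 14.0, 32.7, 23.3 and 29.1 CPM in oligomycin and 0, 0, 0 and 1.05 CPM in actinomycin D, at least 20.1-fold apart. The secreted Wnt inhibitor dkk1b (ENSDARG00000045219) had 4.41, 8.59, 7.76 and 8.11 CPM in oligomycin and no count in any actinomycin D library, at least 5.84-fold apart. DUSP6, an ERK phosphatase induced by FGF, reached 3.61, 30.6, 16.9 and 45.6 CPM against 0, 0, 0 and 2.11 CPM (log2 fold change 5.26, SE 1.11, adjusted p 0.0037). Its spread between oligomycin libraries was wide, with replicate 1 lowest and replicate 4 highest. The BMP antagonist chrd was higher by 5.09 on the log2 scale (adjusted p 0.00236). A pair of identifiers was not called: SPRY2 (adjusted p 0.293) and 1 of 2 identifiers of BAMBI (adjusted p 0.514), both with actinomycin D levels of 1 CPM or more in every library.

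All 13 tested ventral and mesendoderm transcription factors were higher in oligomycin, where 9.79% of all genes tested were. The number was 9 without oligomycin replicate 4, and 5 more factors were not tested. The ventral repressor vox (ENSDARG00000099761) held 84.2, 118, 105 and 157 CPM in oligomycin and 0, 0, 0.619 and 4.21 CPM in actinomycin D, log2 fold change 6.36 (SE 0.756, adjusted p 3.58e-05). The mesoderm factor tbxta (no tail, ENSDARG00000101576) held 7.22, 16.1, 14.1 and 33.0 CPM against 0, 0, 0 and 1.05 CPM, at least 14.3-fold higher. Untreated embryos held 90.7, 75.2, 21.3 and 20.2 CPM of tbxta, so that oligomycin replicate 4 lay within the untreated range and the others below it. The endoderm factors GATA5, GATA6 and foxa3 were at least 5.84-, 3.96- and 5.33-fold higher, and mixl1 was higher by 3.44 on the log2 scale.

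Epidermal and enveloping layer genes, which form the outer cell sheet of the blastula, were higher for 11 of 15 tested identifiers. This was 73.3%, against 9.79% of all genes tested, and 4 more were not tested. Without actinomycin D replicate 3 the number higher was 7. The transcription factor grhl3 (ENSDARG00000078552) held 46.1, 104, 97.7 and 146 CPM in oligomycin and 0.466, 0.521, 0 and 7.37 CPM in actinomycin D (log2 fold change 5.43, SE 0.747, adjusted p 0.000163). The keratin gene krt18a.1 (ENSDARG00000018404) had 14.4, 25.8, 29.3 and 116 CPM against 0, 0, 0.309 and 7.02 CPM, and 473, 509, 231 and 225 CPM in untreated embryos. Oligomycin libraries thus lay above actinomycin D and below untreated libraries, with a log2 fold change of 4.51 over actinomycin D (SE 0.931, adjusted p 0.00353). The keratin krt92 stood at 0.502 ± 0.393 CPM in oligomycin and 19.8 ± 16.4 CPM in untreated embryos (SD, n = 4) and was not called against actinomycin D (adjusted p 0.452). TFAP2A and TP63 also were not called (adjusted p 0.177 and 0.768).

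Ectoderm and neural transcription factors were higher for 12 of 17 tested identifiers (70.6%, against 9.79% of all genes tested), with 5 more not tested. Of the 2 identifiers of the forkhead gene FOXB1, one (ENSDARG00000053650) had 3.21, 17.7, 10.9 and 18 CPM in oligomycin and no count in actinomycin D, at least 10.1-fold higher. The other (ENSDARG00000089042) had 2.81, 25.8, 5.64 and 24.9 CPM against 0, 0, 0 and 0.702 CPM, at least 12-fold higher. The homeobox gene irx7 (ENSDARG00000002601) held 46.1, 166, 95.9 and 135 CPM in oligomycin and 0.466, 0, 0.309 and 4.56 CPM in actinomycin D, log2 fold change 6.19 (SE 0.740, adjusted p 3.58e-05). Untreated libraries, at 70.0 to 121 CPM of irx7, overlapped those of oligomycin (adjusted p 0.59). The caudal-type homeobox gene cdx4 was low throughout, at 2.10 to 4.59 CPM in oligomycin and 0 in actinomycin D, at least 2.92-fold apart. SOX11 (ENSDARG00000095743) and OTX1, both abundant in the egg, were not called (adjusted p 0.438 and 0.703).

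Among 20 tested identifiers of other early zygotic genes, 19 were higher (95%, against 9.79% of all genes tested), and 15 without actinomycin D replicate 3. Another 4 were not tested. The apelin receptor gene aplnrb (ENSDARG00000036670) held 39.3, 45.1, 55.7 and 239.9 CPM in oligomycin and 0, 0, 0 and 8.42 CPM in actinomycin D (log2 fold change 5.34, SE 1.07, adjusted p 0.00381). Oligomycin replicate 4 lay within the untreated range of 190 to 314 CPM and the other 3 lay below it. Its paralog aplnra (ENSDARG00000002172) had 13.2, 22.0, 20.1 and 68.5 CPM against 0, 0, 0.619 and 2.11 CPM, higher (log2 fold change 5.25, SE 0.821, adjusted p 0.000381). Second identifiers of a symbol did not always follow, since 1 of 2 for GADD45A was not called (adjusted p 0.671). In these 5 lists of zygotic genes, edgeR called 0 identifiers lower in oligomycin, with 0 at an unadjusted p under 0.05 and 0 by DESeq2. For identifiers near 0 in actinomycin D a lower call was hardly possible.

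The tested precursors of miR-430 were higher in oligomycin than in actinomycin D, and 3 of them were also higher than in untreated embryos at 4 hpf. From 3 to 4 hpf their median log2 change was -0.56 in untreated embryos and 1.41 in oligomycin, with no called change in either. Of 55 identifiers named for it, 5 had enough counts to be tested. The 5 tested were all higher in the oligomycin group, where 9.79% of all genes tested were. Identifiers near 0 in actinomycin D could pass the filter only through other groups, so this outcome was in part set by the filter. Without a filter, 7 of the 55 were higher. These loci are near-identical copies, so the split of reads between them is uncertain. The copy dre-mir-430b-6 (ENSDARG00000109380) held 29.7, 52.1, 34.2 and 17.4 CPM in oligomycin, no count in actinomycin D, and 3.89, 4.39, 9.20 and 5.82 CPM in untreated embryos. It was at least 27.0-fold above actinomycin D, and above untreated by 2.46 on the log2 scale (adjusted p 0.000921). The most abundant copy, dre-mir-430b-17 (ENSDARG00000114956), held 47.3, 115, 75.1 and 64.8 CPM in oligomycin against 0, 0, 0 and 1.75 CPM, log2 fold change 7.13 (SE 0.792, adjusted p 3.45e-05). Against untreated embryos dre-mir-430b-16 and dre-mir-430b-17 were also higher (by 3.09 and 1.44, adjusted p 0.00161 and 0.0365), while dre-mir-430b-5 and dre-mir-430a-13 were not called (adjusted p 0.159 and 0.0927).

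Genes with both a maternal and a zygotic pool had smaller folds than zygotic-only genes. The median log2 fold change of the 285 genes was 0.73, with 94 higher. Without oligomycin replicate 4, 55 of them were higher, with 284 tested. Medians relative to untreated embryos were 40.7% in oligomycin and 23.0% in actinomycin D, and replicate 4 was the highest oligomycin library in 86 of the 94 genes. The transcription factor gene klf2a (ENSDARG00000042667) held 33.7, 78.9, 83.9 and 146 CPM in oligomycin and 1.87, 3.65, 5.26 and 6.67 CPM in actinomycin D. The groups did not overlap, and the log2 fold change was 4.23 (SE 0.615, adjusted p 0.000248). IER5L (ENSDARG00000054906), an immediate early response gene, had 18, 53.7, 41.3 and 82.6 CPM against 0.466, 0.521, 0.619 and 5.26 CPM (log2 fold change 4.69, SE 0.734, adjusted p 0.000385). BTG1, an antiproliferative gene whose protein binds the CCR4-NOT deadenylase, was among the smaller differences, with 91.8, 96.6, 97.0 and 171 CPM against 69.0, 73.0, 81.7 and 70.9 CPM. It was higher by 0.64 (SE 0.186, adjusted p 0.0247), a call that was lost without oligomycin replicate 4 and without actinomycin D replicate 1 or 4.

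Maternal RNAs that untreated embryos clear were more abundant under oligomycin than under actinomycin D. Of the 424 genes, 229 were higher in oligomycin, 139 of them at least 2-fold, and the median log2 fold change was 0.75, against -0.04 over all genes tested. For these same 424 genes the first library series alone gave 210 higher and the second 56, and the number was 161 without oligomycin replicate 1. As shares of counts, oligomycin libraries held 5.62%, 4.44%, 4.88% and 3.79%, and actinomycin D libraries 2.57%, 2.33%, 3.14% and 3.05%. All oligomycin values lay above all actinomycin D values, with replicate 4 the lowest of the oligomycin libraries and replicate 1 the highest. By gene, the groups were apart with oligomycin higher in 226 of the 424 and lower in 9, where 10.7% and 6.57% of all genes were. Across the 229 genes, replicate 1 was the highest oligomycin library in 166 and replicate 4 the lowest in 132, the reverse of their places in the zygotic-only class. Untreated embryos at 4 hpf, which chose the class, held 1.87 ± 0.471% (SD, n = 4).

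The strongest cleared calls were slc25a39, si:ch211-160j14.2, MRPL48, zgc:171727 and HELLS. The mitochondrial glutathione carrier gene slc25a39 (ENSDARG00000007449) held 113, 93.4, 105 and 73.9 CPM in oligomycin and 20.1, 21.4, 40.5 and 37.2 CPM in actinomycin D. The groups did not overlap, and the log2 fold change was 1.66 (SE 0.203, adjusted p 2.02e-05). HELLS (ENSDARG00000057738), a chromatin remodelling helicase, had 251, 187, 190.5 and 148 CPM against 86.3, 80.8, 98.1 and 112 CPM, higher by 1.04 (SE 0.139, adjusted p 3.9e-05). Its actinomycin D libraries sat at the untreated level of 74.7 to 99.6 CPM, with only replicate 4 above it. MRPL48, a mitochondrial ribosomal protein gene, was higher by 1.26 (SE 0.162, adjusted p 3.11e-05).

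A few cleared RNAs differed in the opposite direction. Among the 4 lower in oligomycin were M6PR, NIBAN2 and STARD7, against a background of 2.14% of all genes. The mannose 6-phosphate receptor gene M6PR (ENSDARG00000018432) held 127, 115, 135 and 109 CPM in oligomycin, 183, 171, 176 and 149 CPM in actinomycin D and 57.1 to 83.5 CPM in untreated embryos. Its log2 difference was -0.48 (SE 0.112, adjusted p 0.00562), both treated groups lying above every untreated library. NIBAN2 and STARD7 lost their calls without actinomycin D replicate 2 and without oligomycin replicate 4. The count of 4 among the 424 became 8 with the library set as a replicate block. Without actinomycin D replicate 2 it was 1, in a class formed anew that held 492 genes.

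The change from 3 to 4 hpf was also measured within each treatment. The median log2 change of the 424 cleared RNAs was -1.20 in untreated embryos, -0.88 in actinomycin D and -0.20 in oligomycin. The untreated fall chose the class, so the untreated values in this paragraph follow from that choice. Libraries of actinomycin D embryos at 3 hpf also had a part in it, through the minimum level of 5 CPM. In actinomycin D 249 of the 424 fell and 1 rose, where 7.7% and 3.23% of all genes did. In oligomycin edgeR called 0 lower, where 0.0178% of all genes fell, and DESeq2 called 0. At an unadjusted p under 0.05, 39 of the 424 fell in oligomycin, and 240 of all 11238 genes tested. The fitted oligomycin change was below 0 in 379 of the 424, so most values lay slightly lower at 4 hpf. Among all 11238 genes tested it was below 0 in 5999. The libraries at 3 and 4 hpf did not overlap, with 4 hpf lower, for 369 of the 424 in untreated embryos (13.3% of all genes), 264 in actinomycin D (9.85%) and 18 in oligomycin (1.17%). Of the 249 that fell in actinomycin D, the oligomycin median was -0.21, and of the other 175 it was -0.20. The actinomycin D medians, -1.10 and -0.44, were set apart by the split itself.

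**Figure D3:**
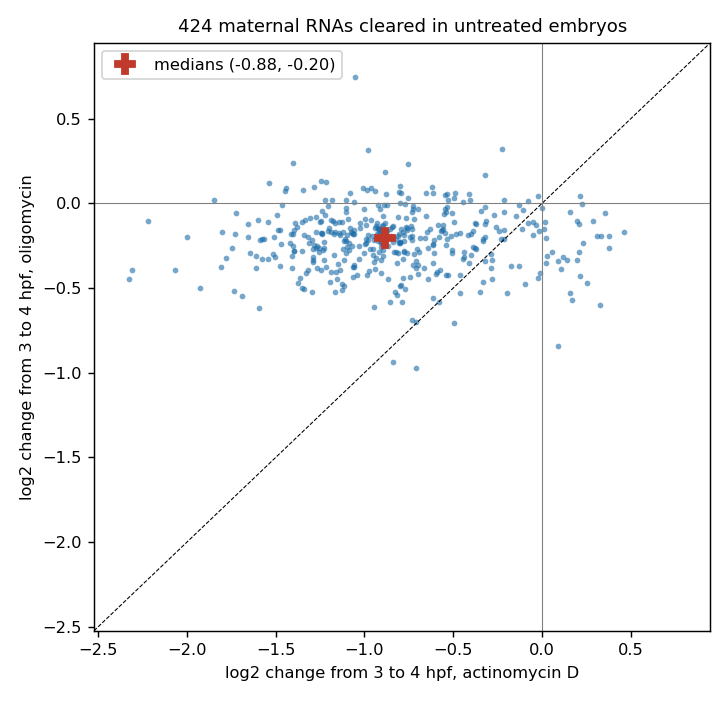
Log2 change from 3 to 4 hpf in oligomycin (vertical axis) against that in actinomycin D (horizontal axis) for the 424 maternal RNAs cleared in untreated embryos, one point a gene, with the dashed line marking equal change and the cross the medians. Points spread from near 0 to beyond -2 along the actinomycin D axis. Along the oligomycin axis they form a narrower band, with 379 of the 424 below 0. The medians were -0.88 in actinomycin D and -0.20 in oligomycin.

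The difference between these 2 time changes was then tested for each gene. It reached an adjusted p under 0.05 for 5 genes, all with the higher value in oligomycin (0.0445% of those tested), and for 0 genes in the other direction. At an unadjusted p under 0.05 the numbers were 781 and 327, and DESeq2 called 94 and 1. With the library set as a replicate block, edgeR called 219 genes with the higher value in oligomycin and 8 with the lower. The second library series alone gave 0 genes and the first gave 1. Leaving out 1 library gave between 1 gene, without actinomycin D 3 hpf replicate 1, and 26 genes, without actinomycin D 4 hpf replicate 3. Among the 424 cleared RNAs the difference was positive in 368, with a median of 0.68 where all genes had -0.03, and 1 gene was called (204 positive at an unadjusted p under 0.05). Of the same 424, 84 were called with the library set as a replicate block and 34 by DESeq2.

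The 5 genes were NOCT, pim2, terf2ip, slc25a39 and ctss2.1. NOCT (nocturnin, ENSDARG00000077726) belongs to the deadenylase-like protein family and acts in mammals as a phosphatase of NADP cofactors. It stood at 23.9, 25.2, 29.0 and 23.1 CPM in actinomycin D at 3 hpf and at 3.73, 3.13, 8.36 and 10.5 CPM at 4 hpf. In oligomycin it went from 44.3, 39.9, 43.0 and 44.3 CPM to 50.5, 45.6, 49.7 and 57.6 CPM. The RNA thus fell in actinomycin D (log2 change -1.89, adjusted p 6.16e-05) and not by a called amount in oligomycin (0.25, adjusted p 0.886). The time changes differed by 2.14 (SE 0.298, adjusted p 0.00183). Untreated embryos had a rise of NOCT (log2 change 0.96, adjusted p 0.000483), so it is not among the cleared RNAs. At 4 hpf it was the gene of smallest p in the whole comparison, higher in oligomycin by 2.90 (SE 0.224, adjusted p 1.72e-08).

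The kinase gene pim2 (ENSDARG00000059001) moved in both treatments in opposite directions. Oligomycin libraries went from 30.8, 47.2, 29.5 and 55.2 CPM to 59.4, 139, 96.6 and 158 CPM, a rise of 1.46 (adjusted p 0.0177). Actinomycin D libraries went from 38.9, 22.6, 40.2 and 42.9 CPM to 16.3, 15.1, 19.5 and 23.2 CPM, which fell by 0.95 on the log2 scale (adjusted p 0.046). The difference of the time changes was 2.41 (SE 0.412, adjusted p 0.0335). For terf2ip, a telomere protein gene, it was 1.22 (SE 0.231, adjusted p 0.044), and for the cathepsin gene ctss2.1, 0.92 (SE 0.175, adjusted p 0.044). The cathepsin RNA was abundant, at 1102, 1207, 998 and 844 CPM in oligomycin and 428, 416, 488 and 545 CPM in actinomycin D at 4 hpf, after 997 to 1233 and 841 to 1021 CPM at 3 hpf. For slc25a39 the difference was 1.46 (SE 0.277, adjusted p 0.044), with log2 changes of -1.66 in actinomycin D and -0.20 in oligomycin. Its actinomycin D libraries at 3 hpf ranged between 71.8 and 117 CPM. All but NOCT lost their calls without actinomycin D 3 hpf replicate 1, where their adjusted p-values ran from 0.0678 to 0.0768, and each lost it on dropping any 1 of 9 to 15 libraries of the 24. The call for NOCT was kept whichever single library was dropped.

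Some egg and germ plasm RNAs were higher in oligomycin and others were not called. Of 18 oocyte and egg RNAs, 7 were higher in oligomycin (38.9%, against 9.79% of all genes tested), 4 without actinomycin D replicate 2. Among them edgeR called 0 lower (1 at an unadjusted p under 0.05, 1 by DESeq2 and 1 with the library set as a replicate block). The claudin gene cldng (ENSDARG00000003701) held 1747, 1855, 1519.8 and 1263 CPM in oligomycin and 647, 544, 735 and 642 CPM in actinomycin D, log2 fold change 1.31 (SE 0.178, adjusted p 4.56e-05). The others were bmb, needed for fusion of early nuclei, ZAR1L, BTG4, cldnd, cth1 and slbp2. The call for BTG4 was lost without actinomycin D replicate 1 or 2 and without oligomycin replicate 1 or 3. In contrast buc (bucky ball, ENSDARG00000096095), the organiser of the Balbiani body, stood at 1930.9, 2077, 1717 and 1373 CPM against 1945, 2062, 1793 and 1989 CPM and was not called (-0.13, adjusted p 0.549). Both treated groups lay above the 664 to 1089 CPM of untreated embryos. Of 14 germ plasm RNAs, PIWIL2 and ca15b were higher, by 0.87 and 1.13 (adjusted p 0.00394 and 0.00748). This was 14.3%, against 9.79% of all genes tested. With the library set as a replicate block 5 of the 14 were higher, and 1569 of all 11238 genes. DDX4 (vasa) and DAZL were not called (adjusted p 0.526 and 0.139). Among the germ plasm RNAs 0 were lower, with 1 at an unadjusted p under 0.05 and 0 by DESeq2.

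Few members of a list of maternal genome activators and other early factors were called, and the activators nanog, pou5f3 and sox19b were not among them. Of 15 tested identifiers, tdgf1, the Nodal co-receptor, was higher (0.61, adjusted p 0.0175) and YAP1 lower (-0.35, adjusted p 0.0259), shares of 6.67% each beside 9.79% and 2.14% over all genes. The first call was lost without oligomycin replicate 4, and the second on dropping any 1 of 7 libraries of the 24, including actinomycin D replicates 1 to 3 and oligomycin replicates 1 and 2. For nanog (ENSDARG00000075113) oligomycin libraries held 796, 916, 982 and 1356 CPM and actinomycin D libraries 1087, 914, 982 and 1147 CPM. These overlapped, with a log2 difference of -0.03 (SE 0.127, adjusted p 0.92). The corresponding values were -0.05 for pou5f3 and -0.18 for sox19b (adjusted p 0.81 and 0.329). Of 44 deadenylation and decay genes, NOCT, BTG1, CNOT10 and ZFP36L2 were higher (9.09%) and UPF1 and IGF2BP3 lower (4.55%), with 8 lower under the replicate block. The higher count was 1 without actinomycin D replicate 1, and the lower count 0 without replicate 2. The abundant members parn and pabpc1a were not called (adjusted p 0.409 and 0.12).

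Among maternal steady RNAs the differences were small apart from a few. ELOVL3, a fatty acid elongase gene, held 235, 186, 181 and 153 CPM in oligomycin and 68.5, 61.0, 93.5 and 90.9 CPM in actinomycin D (log2 fold change 1.26, SE 0.163, adjusted p 3.26e-05). MELK and fbxo5, a kinase and an inhibitor of the anaphase-promoting complex, were higher by 1.21 and 0.89 (adjusted p 3.55e-05 and 3.9e-05). Among genes outside these classes, tacc3, which acts at the mitotic spindle, was higher by 1.55 (adjusted p 2.37e-05). The genes lower in oligomycin, such as CDC42BPB (-0.49, adjusted p 0.00189) and cdc34b (-0.49, adjusted p 0.00287), mostly differed by less than 2-fold.

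An unnamed identifier, ENSDARG00000083480, chosen here after its values were seen, was the widest difference in the lower direction. It held 1.2, 0, 0 and 0 CPM in oligomycin and 45.7, 40.1, 33.4 and 24.6 CPM in actinomycin D. Untreated embryos held 0 to 0.736 CPM, and actinomycin D embryos already had 17.5 to 34.9 CPM at 3 hpf. Oligomycin was thus at least 30.1-fold lower (adjusted p 5.47e-08), and the signal was seen with actinomycin D at both times.

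RNAs of the mitochondrial genome were lower in oligomycin for 5 of 13 genes (38.5%, against 2.14% of all genes tested). They were higher for 0 (0 at an unadjusted p under 0.05 and 0 by DESeq2). MT-ND6 (ENSDARG00000063922), a complex I subunit gene on the strand opposite to most of the others, held 15.6, 25.8, 22.6 and 21.0 CPM in oligomycin and 75.5, 63.6, 57.6 and 57.2 CPM in actinomycin D. Untreated embryos, at 14.3 to 26.3 CPM, resembled oligomycin in range, and the log2 difference was -1.58 (SE 0.292, adjusted p 0.00102). At 3 hpf MT-ND6 was already apart, at 5.78 to 34.3 CPM in oligomycin and 38.8 to 63.7 CPM in actinomycin D. Its time changes differed by -0.02 (adjusted p 0.999). The gene mt-nd4l was lower by a log2 difference of -1.08 (SE 0.217, adjusted p 0.00187), MT-CO1 of -0.81 (adjusted p 0.0157) and MT-ND1 of -0.63 (adjusted p 0.0263). Counting by strand is not stated, so reads from transcripts on both strands of this compact genome cannot be told apart. The number was 2 without actinomycin D replicate 1, MT-CO1 also lost its call without oligomycin replicate 1, and MT-ND5 (adjusted p 0.05) lost its call in 27 alternatives. As a share of all counts the 13 genes held 0.0896% to 0.112% in oligomycin and 0.0883% to 0.153% in actinomycin D.

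Nuclear genes of the enzyme that oligomycin binds were higher for 6 of 16 identifiers (37.5%, against 9.79% of all genes tested). The list includes the inhibitory factors atp5if1a and atp5if1b, and edgeR called 0 lower (0 at an unadjusted p under 0.05 and 0 by DESeq2). The peripheral stalk gene ATP5PD (ENSDARG00000098355) held 797, 471, 633 and 496 CPM in oligomycin and 215, 139.7, 362 and 291 CPM in actinomycin D (log2 fold change 1.24, SE 0.308, adjusted p 0.0104). It is also a cleared maternal RNA, at 138 to 279 CPM in untreated embryos. ATP5MG, ATP5F1D and ATP5F1C were higher by 1.04, 0.80 and 0.67 (adjusted p 0.0207, 0.0171 and 0.0174), whereas the catalytic subunit genes ATP5F1A and ATP5F1B differed by -0.03 and 0.03 (adjusted p 0.912 and 0.891). The number was 2 without oligomycin replicate 1, where ATP5MG and ATP5F1D lost their calls, and 0 in the second library series alone.

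Of 17 integrated stress response and chaperone genes, atf4b, sesn2 and LONP1 were higher (17.6%, against 9.79% of all genes tested), 6 with the replicate block. By edgeR at either p or by DESeq2, 0 were lower (1 with the block). The call for atf4b was lost without actinomycin D replicate 3 or oligomycin replicate 4, and that for LONP1 without any 1 of 6 of the 8 libraries. The sestrin gene sesn2 (ENSDARG00000070012) held 54.5, 36.5, 46.9 and 35.4 CPM in oligomycin, above the 12.1, 15.6, 19.8 and 18.9 CPM of actinomycin D by 1.36 (SE 0.289, adjusted p 0.00287) and above untreated embryos by 1.09 (adjusted p 0.00788). Of 19 glycolysis genes, HK2, a hexokinase, was higher (0.70, adjusted p 0.00254) and SLC16A3, a monocarboxylate transporter, lower (-0.39, adjusted p 0.00945). These shares, 5.26% each, stood beside 9.79% and 2.14% of all genes tested. Each direction had 2 under the replicate block, and 0 were lower without actinomycin D replicate 2. Of 76 cytosolic ribosomal protein genes edgeR called 0 in either direction, with 0 at an unadjusted p under 0.05 and 0 by DESeq2, and their median was -0.03. With the replicate block 1 was lower, and the first library series alone gave 1 higher.

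**Figure D4:**
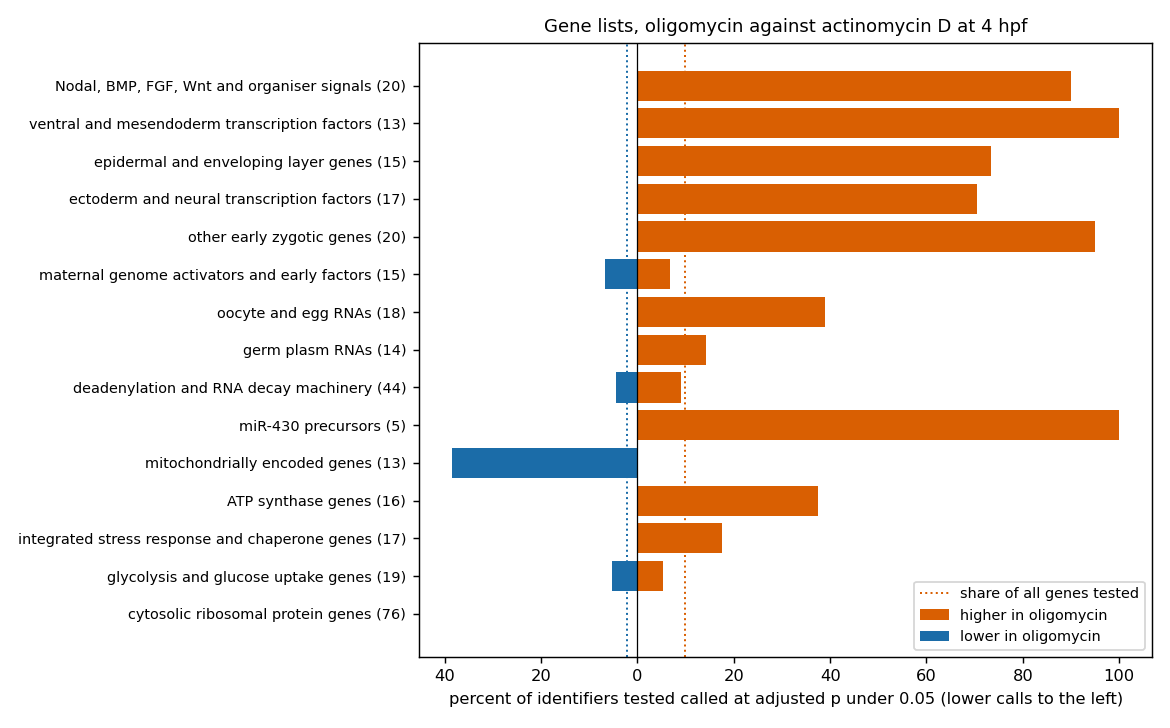
Percent of tested identifiers in 15 gene lists (number tested in brackets) called higher in oligomycin (bars to the right) or lower (bars to the left) against actinomycin D at 4 hpf, with dotted lines at 9.79% and 2.14%, the shares over all genes tested. The 5 lists of zygotic genes and the miR-430 precursors reach 70.6% or more, and mitochondrially encoded genes are the longest bar to the left at 38.5%.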

How the data were processed

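Per the labels' protocols, total RNA of whole embryos went into QuantSeq libraries, whose reads lie at the 3′ ends of polyadenylated RNAs. Values deposited by the authors are raw read counts per Ensembl gene identifier, per the file headers. The submitters' processing notes name Bowtie2 2.3.4.1, featureCounts, Subread 1.6.2 and the build GRCz11. The annotation release, strand setting and use of molecular identifiers are not given in the sources used here. Amplified reads are not independent molecules, so floors cover counting error only.

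Each file listed 32520 identifiers, of which 29201 matched a symbol in a gene name table, often in the human spelling. In R 4.3.3, edgeR 4.0.16 filtered genes by group (filterByExpr, 11238 kept), scaled libraries by TMM and fitted the quasi-likelihood test (robust) to all 24 libraries with 1 mean per group. P-values were adjusted over the 11238 genes and called under 0.05. CPM are counts over the TMM-adjusted library size, and shares of counts are of the genes tested. Where every library of a group had 3 counts or fewer, the fold was set against 3 counts per library.

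The submitters' library numbers form 2 series and 4 sets, each set holding 1 library per group; their meaning is not stated, and replicates are numbered in accession order. Deviations of same-set libraries from their group means correlated between 0.265 and 0.496 in all 4 pairs. Between different sets the correlations ran from -0.359 to 0.263. The highest of these, oligomycin set 1 with actinomycin D set 3, lay next to the 0.265 within set 1. The set was read as pairing the libraries, though the values for set 1 do not show it. The blocked fit is given for the main call counts that it moved by over 1.5 times, not for every one. Over all genes tested, 1428 fell in actinomycin D from 3 to 4 hpf and 103 rose in oligomycin in that fit. No libraries of a group agreed within counting noise (lowest chi-square per gene 3.60).

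The genes named were, per class and direction, up to 5 with a symbol and groups that do not overlap, by smallest p; per list, up to 4 called by size and up to 2 not called by level; and up to 5 for the time difference. Further list members are given to complete a group. The groups compared, lists and rules were chosen with earlier results of these data known. DESeq2 1.42.0, other scalings and filters, single series, the replicate block and leaving out each library were run as alternatives. The test was tried on simulated counts with known changes. Some genes and 1 gene list are not reported here.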

Additional observations from a re-analysis of the deposited data

Results flagged for a closer look

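In 98 groups of 4 libraries checked (40 named genes, the class shares and library quality measures), 14 had a library far from the other 3. Chance gives about 1 group in 20 for normally spread values. That rate does not hold where the other 3 libraries are at 0, since any count then stands out. Of these, 7 concerned actinomycin D replicate 4, which was the highest in 6. It held 0.351 CPM of tagapa, 2.81 CPM of GADD45B, 9.12 CPM of mxtx2, 4.21 CPM of vox and 5.26 CPM of IER5L, where the other 3 libraries held under 1 CPM. Its zygotic-only share was 0.0471% of counts and its maternal steady share, the lowest, 62.2%. Actinomycin D replicate 2 stood out for ndr2 (0.521 CPM) and STARD7 (142.3 CPM), and replicate 3 for MELK (51.7 CPM) and fbxo5 (210.8 CPM). Oligomycin replicate 4 was lowest and apart for si:ch211-160j14.2 (62.1 CPM), fbxo5 (295.4 CPM) and RNF103 (79.0 CPM). The cause was not tested.

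The difference between oligomycin and actinomycin D was larger at 4 than at 3 hpf, by edgeR's test of that difference with Benjamini-Hochberg adjustment, for NOCT (2.14), pim2 (2.41), terf2ip (1.22), slc25a39 (1.46) and ctss2.1 (0.92), all on the log2 scale.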

How the results depend on the processing

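The number of genes lower in oligomycin, 240, became 130 by library totals, 147 with TMM factors from maternal RNAs, 43 without a filter, 102 with at least 10 counts in every library, 55 from the 8 libraries alone, 88 and 3 in the first and second series, and 770 with the library set as a replicate block. Genes higher were 250 in the second series. For the class counts in this paragraph, classes were formed anew in each alternative except the 8 libraries alone, so their members and sizes differed. Higher zygotic-only genes were 0 with at least 10 counts in every library, which removes genes absent in actinomycin D. They were 63 from the 8 libraries, and 59 and 85 in the series. Maternal and zygotic genes higher were 34 with at least 10 counts, 36 and 45 in the series, and 56 without set 4 at 4 hpf, an alternative chosen after seeing the data. Cleared RNAs higher were 61 in the second series and 3 in classes of a 4-fold change, which hold fewer genes; cleared RNAs lower were 2 without a filter, 7 with the block, 1 and 0 in the series, 0 in the 4-fold classes and 2 without set 4. The time difference gave 10 genes higher with RLE or maternal TMM factors, 18 without a filter, 17 with at least 10 counts, 219 (and 8 lower) with the block, 1 and 0 in the series, 94 (and 1 lower) by DESeq2 and 29 without set 4. The cause was not tested where none is given. Leaving out 1 library gave 855 to 1248 genes higher, 41 to 295 lower, 147 to 229 zygotic-only, 56 to 99 maternal and zygotic, 163 to 321 cleared higher, 1 to 7 cleared lower, and 1 to 26 time differences higher and 0 lower. Calls lost to the series alone rest on 2 libraries a group. Of 87 named genes called, 38 kept their call in every alternative in which they were tested, and 0 reversed. Genes that a filter removed were not counted there, so vox and mxtx2 had 34 alternatives where HELLS had 35. Scaling choices moved the median of all genes by less than 0.1. Counts below about 3 per library limit folds of zygotic genes to bounds.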
